A study of Homo sapiens with 6 samples.

Results

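The genes described here are 10 genes of the epithelial-mesenchymal transition (EMT) in A498 cells, a human cell line from a kidney carcinoma, after knockdown of PTPRZ1, a receptor protein tyrosine phosphatase. They comprise the transcription factors ZEB1, ZEB2, SNAI1, SNAI2 and TWIST1, the intermediate filament gene VIM, the cadherins CDH1 and CDH2, and the epithelial splicing regulators ESRP1 and ESRP2. They were chosen by name for their place in the EMT programme, with earlier results of these data known. All 10 were found by symbol among the 61860 genes of the count table. The PTPRZ_Si group (3 libraries) is labelled as cells with PTPRZ1 knocked down by siRNA. The PTPRZ_nc group (3 libraries) is labelled as the control, with a plasmid named as the means of knockdown. Both groups share the cell line and carry the same treatment label, transfection infection, so the means of knockdown named by the labels cannot be told apart from the group. No age, clone, time after transfection or sequence of the siRNA is given in the sources used here, nor whether the libraries came from separate cultures, so p-values measure the spread between these libraries only. RNA was sequenced in pairs of reads, and the series title sets PTPRZ1 and the ubiquitin ligase RNF26 against the response of clear cell kidney carcinoma to kinase inhibitors and PD-1 blockade.

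PTPRZ1 itself had 0 counts in all 6 libraries, so its knockdown could not be checked in these data. Total counts ran from 14407846 to 21469746 in the PTPRZ_Si libraries and from 13726908 to 18609477 in the PTPRZ_nc libraries. Of the 61860 genes, 15476 passed a filter on low counts and were tested with edgeR's quasi-likelihood test. A gene is said to have changed where its p-value, adjusted by the Benjamini-Hochberg method over the 15476 genes, was at most 0.05. By that rule 4243 genes (27.4%) changed, 2164 (14%) higher and 2079 (13.4%) lower in PTPRZ_Si, with a median log2 fold change of 0.001 over all tested genes. Kidney epithelial markers summed to between 3669 and 3742 CPM (counts scaled to the library total) in PTPRZ_Si. In PTPRZ_nc they summed to between 3157 and 3302 CPM. Most of the sum came from CA12, KRT8, PAX8 and KRT18, with means of 1428, 1315, 556 and 383 CPM in PTPRZ_Si. In PTPRZ_nc the means of these genes were 1366, 1198, 313 and 338 CPM. PAX2 averaged 21.1 CPM in PTPRZ_Si and 16.4 CPM in PTPRZ_nc. CA9, CUBN and LRP2 were low, with 291, 114 and 5 counts over all 6 libraries. The library PTPRZ_nc 2 was the shallowest and differed most from its fellow controls, with a chi-square per degree of freedom of 5.11 and 6.11 against them, where the other pairs of replicates gave 2.16 to 3.49.

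EMT is a programme in which epithelial cells lose their cell junctions and polarity and take on the shape and motility of mesenchymal cells. Zinc finger factors of the SNAIL and ZEB families, together with the helix-loop-helix factor TWIST1, bind E-box sequences in the promoters of epithelial genes and recruit corepressors there. E-cadherin (CDH1) is their best known target, and its loss alongside a gain of N-cadherin (CDH2) is called the cadherin switch. Vimentin (VIM) is the intermediate filament of mesenchymal cells. ESRP1 and ESRP2 are RNA-binding proteins that keep epithelial exons in transcripts such as those of FGFR2 and CD44, and ZEB factors repress them. The ZEB factors and the miR-200 family of microRNAs repress each other. Cells of the kidney tubule differ from many epithelia in carrying N-cadherin and cadherin-6 in the proximal tubule, and clear cell carcinomas commonly contain vimentin.

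Of the 10 genes, 6 passed the filter on low counts, and among these ZEB1 was higher and VIM lower in PTPRZ_Si. ZEB2, SNAI1, SNAI2 and CDH2 did not pass the threshold. The median log2 fold change of the 6 was 0.096. With 2 of 6 changed against 27.4% of all tested genes, the count for the group is near the background. TWIST1, CDH1, ESRP1 and ESRP2 had too few counts for the test. All A498 libraries therefore had much N-cadherin and vimentin mRNA and very little E-cadherin or ESRP mRNA, and this held in both groups.

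**Figure D1:**
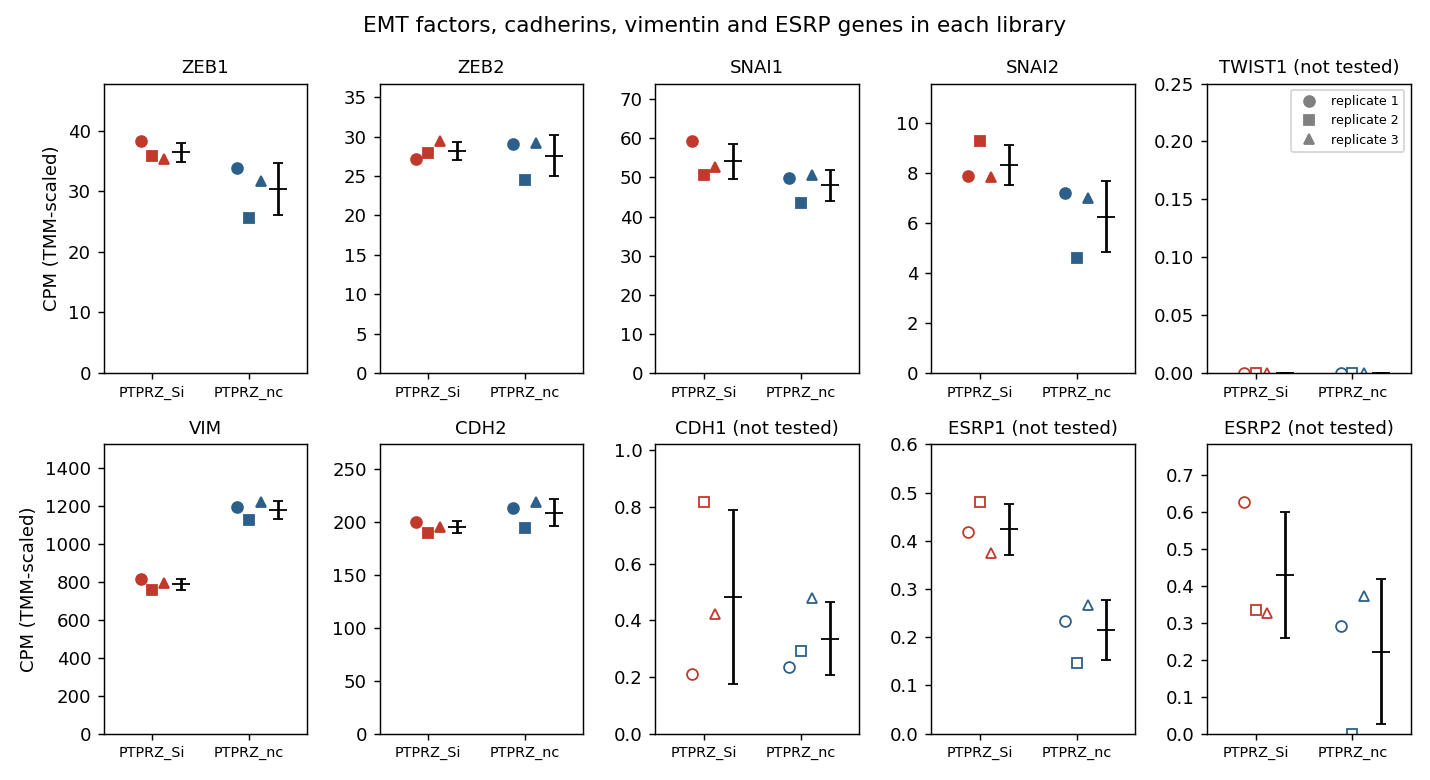
CPM (scaled by TMM) of the 10 genes in each library, with PTPRZ_Si in red on the left and PTPRZ_nc in blue on the right; marker shape gives the replicate number, bars are mean ± SD of 3 libraries, and open markers are genes that were not tested. VIM is the clearest separation, with PTPRZ_Si libraries between 757 and 814 CPM and PTPRZ_nc libraries between 1129 and 1220 CPM, while TWIST1 is at 0 throughout.

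Per length, the 10 genes spanned more than 3 orders of magnitude on the axis of CPM per kilobase of annotated exon (GENCODE 29). As means over the 6 libraries, levels ran from VIM at 191 CPM per kilobase through CDH2 at 40.8, SNAI1 at 30.3, ZEB1 at 3.86, SNAI2 at 2.15 and ZEB2 at 1.11 CPM per kilobase. In this order, no library of one of these 6 genes reached the values of the next. CDH1 at 0.0662, ESRP1 at 0.0656 and ESRP2 at 0.0586 CPM per kilobase overlapped and could not be ordered, and TWIST1 was at 0. The order depends on the length used between SNAI2 and ZEB2: over the longest coding transcript they had 3.01 and 2.91 CPM per kilobase, which does not separate them. That length also puts ESRP2 ahead of ESRP1 and CDH1, and raises VIM to 527 CPM per kilobase.

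**Figure D2:**
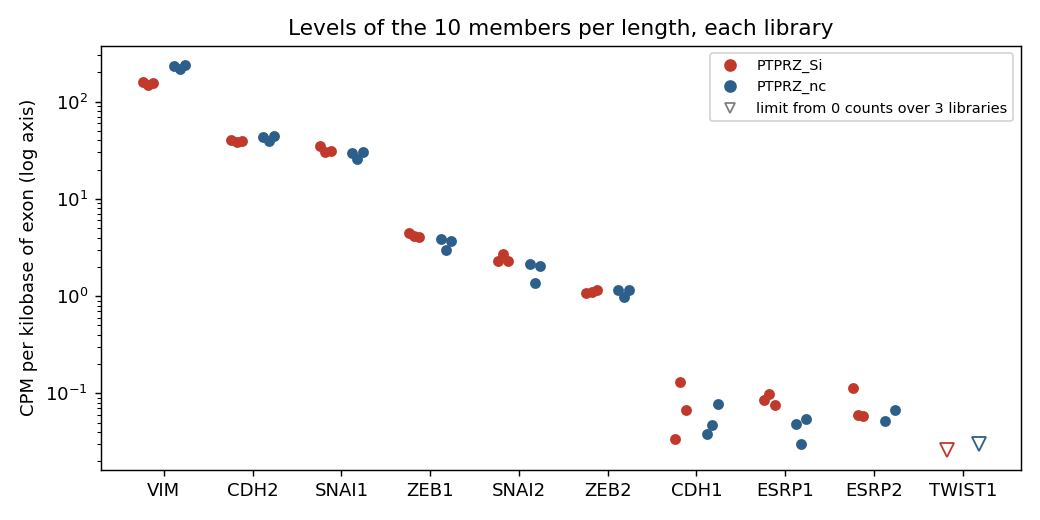
Levels of the 10 genes in CPM per kilobase of exon on a log axis, 1 point per library, PTPRZ_Si in red to the left of PTPRZ_nc in blue; open triangles mark the limit that 0 counts over 3 libraries allows for TWIST1, and the PTPRZ_nc library with 0 ESRP2 counts is not drawn. VIM, CDH2 and SNAI1 lie above 25 CPM per kilobase and CDH1, ESRP1 and ESRP2 lie below 0.2.

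VIM (ENSG00000026025, chr10:17228259-17237593, plus strand, GRCh38) fell, and by its separation of the groups it stands apart from the other members. It had 814, 757 and 794 CPM in PTPRZ_Si 1, 2 and 3, against 1195, 1129 and 1220 CPM in PTPRZ_nc 1, 2 and 3. Every PTPRZ_Si library lay below every PTPRZ_nc library, and the gap between the groups was far wider than the spread within either. The means were 788 ± 28.9 CPM in PTPRZ_Si and 1181 ± 47.1 CPM in PTPRZ_nc (n = 3 each, ± SD). The log2 fold change was -0.58 (SE 0.0388, 95% interval -0.67 to -0.50, adjusted p = 8.69e-09), or 0.667 times the control level. In absolute log2 fold change, 1433 of the tested genes (9.26%) exceeded VIM. A pair of antisense genes overlap VIM exons, VIM-AS1 by 641 bases with 185 counts over all libraries and AL133415.1 by 619 bases with 0 counts, and the counting did not use strand.

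Fibroblasts also hold much vimentin mRNA. The 7 fibroblast markers summed to between 21.8 and 24.0 CPM in PTPRZ_Si and between 31.7 and 41.8 CPM in PTPRZ_nc, nearly all of it COL1A1, and only COL1A1 was tested. Over the 6 libraries, LUM had 0 counts, COL3A1 and PDGFRA had 2 each, DCN had 4, THY1 had 25 and PDGFRB had 30. COL1A1 had 2949 counts and was lower in PTPRZ_Si (log2 fold change -0.67, adjusted p = 5.63e-05). Endothelial markers summed to 1.92 to 2.58 CPM in PTPRZ_Si and 1.23 to 1.75 CPM in PTPRZ_nc, with CDH5 at 0, and leukocyte markers to 0.96 to 1.32 CPM in PTPRZ_Si and 0.587 to 0.877 CPM in PTPRZ_nc, with PTPRC and CD3E at 0. All 6 libraries are labelled as the A498 line. Within it, fewer cells that carry a transcript and less RNA per cell cannot be told apart in such bulk libraries.

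Among the 10 other genes of intermediate filaments and their linkers, 9 were tested, 4 rose, 1 fell and 4 did not pass, with a median log2 fold change of 0.13. For this list and each list below, the background is 14% of all tested genes higher and 13.4% lower. No list was tested as a set. Of the simple-epithelial keratins, KRT8, KRT18 and KRT19 rose, whereas KRT7, at 3.09 CPM in PTPRZ_Si and 4.21 CPM in PTPRZ_nc, did not pass (log2 fold change -0.42, adjusted p = 0.184). KRT8 averaged 1315 ± 7.5 CPM in PTPRZ_Si and 1198 ± 40.6 CPM in PTPRZ_nc (log2 fold change 0.13, adjusted p = 0.00655), and its partner KRT18 averaged 383 ± 9.42 CPM in PTPRZ_Si and 338 ± 12.5 CPM in PTPRZ_nc (0.18, adjusted p = 0.00326). SYNM, which encodes synemin, a filament protein that assembles with vimentin and desmin, also rose (log2 fold change 0.25, adjusted p = 0.00644). The fourth, KRT19, named after its values were seen, was at 5.88 CPM in PTPRZ_Si and 3.46 CPM in PTPRZ_nc (0.76, adjusted p = 0.00976). The linker plectin (PLEC) was lower, at 1308 ± 38.6 CPM in PTPRZ_Si and 1458 ± 138 CPM in PTPRZ_nc (log2 fold change -0.16, adjusted p = 0.0279), with groups that overlapped. With 1 library left out, 3 to 4 of the list rose and 0 to 2 fell, and PLEC did not pass without PTPRZ_Si 1 or without PTPRZ_Si 2. Of 7 tested kidney epithelial markers, 4 rose (PAX8, PAX2, KRT8 and KRT18) and 0 fell by edgeR, where 14% of all tested genes rose. At an unadjusted p under 0.05, 0 were lower too. CA12 (log2 fold change 0.06, adjusted p = 0.277), CUBN (0.81, adjusted p = 0.143) and CA9 (-0.22, adjusted p = 0.508) did not pass, and LRP2 was not tested. KRT8 and KRT18 stand in both lists.

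**Figure D3:**
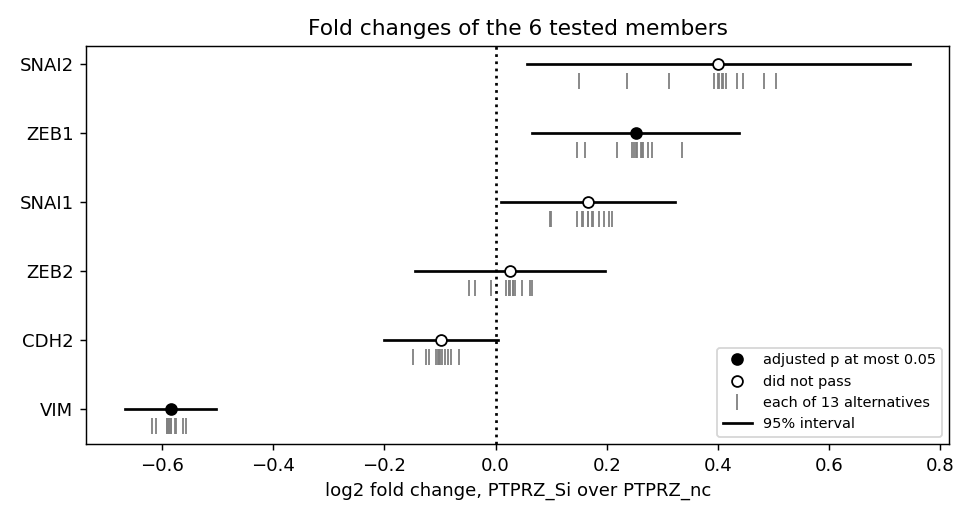
Log2 fold changes of the 6 tested genes, PTPRZ_Si over PTPRZ_nc, with 95% intervals; filled points passed an adjusted p of 0.05, open points did not, and the grey ticks give the value under each of 13 alternative settings. VIM stays between -0.62 and -0.56, whereas the ticks of ZEB2 fall on both sides of 0.

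ZEB1 and ZEB2 are paralogous repressors with a zinc finger cluster at each end and a homeodomain between them. ZEB1 (ENSG00000148516, chr10:31318495-31529814, plus strand) had 38.2, 35.8 and 35.3 CPM in PTPRZ_Si 1, 2 and 3, against 33.8, 25.5 and 31.7 CPM in PTPRZ_nc 1, 2 and 3. The groups did not overlap, although PTPRZ_Si 3 and PTPRZ_nc 1 were close and PTPRZ_nc 2 lay well below the rest. ZEB1 was higher in PTPRZ_Si by a log2 fold change of 0.25 (SE 0.0882, 95% interval 0.07 to 0.44, adjusted p = 0.0417), with means of 36.4 ± 1.55 CPM in PTPRZ_Si and 30.4 ± 4.33 CPM in PTPRZ_nc. Without PTPRZ_nc 2 the log2 fold change was 0.147 and did not pass (adjusted p = 0.151), nor did ZEB1 pass without PTPRZ_nc 3 or without any single PTPRZ_Si library, where the value was 0.218 to 0.282. The antisense gene ZEB1-AS1 overlaps 366 bases of ZEB1 exons and had 355 counts over all libraries.

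ZEB2 (ENSG00000169554, chr2:144364364-144524583, minus strand) had 27.1, 27.9 and 29.4 CPM in PTPRZ_Si, against 29, 24.6 and 29.1 CPM in PTPRZ_nc. The groups lay over each other apart from PTPRZ_nc 2, the lowest library. The log2 fold change was 0.03 (SE 0.081, 95% interval -0.15 to 0.20, adjusted p = 0.853). Within a library, the log2 ratio of ZEB1 to ZEB2 CPM averaged 0.373 ± 0.115 in PTPRZ_Si and 0.133 ± 0.0831 in PTPRZ_nc, higher in every PTPRZ_Si library. An exact 2-sided permutation test gave p = 0.1, the smallest that 3 libraries against 3 allow, and 0.125 after adjustment over the 5 ratios compared. A ratio shows an unequal change of the 2 genes and not which of them moved.

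The microRNAs that pair with ZEB1 and ZEB2 transcripts are shown because this repression is the best known control of both genes. RefSeq mature sequences (GRCh38.p14) are given 5′ to 3′ with the seed, bases 2 to 8, in capitals. All 6 were found in the table. The miR-200 family falls into 2 seed groups that differ by 1 base, and miR-205 has a seed of its own.
hsa-miR-200b-3p: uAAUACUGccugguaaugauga
hsa-miR-200c-3p: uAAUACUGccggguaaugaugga
hsa-miR-429: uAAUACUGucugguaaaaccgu
hsa-miR-200a-3p: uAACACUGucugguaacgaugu
hsa-miR-141-3p: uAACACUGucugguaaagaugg
hsa-miR-205-5p: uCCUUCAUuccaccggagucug

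The annotated 3′ untranslated regions hold many letters that pair with these seeds. In the 2549 bases of ZEB1, CAGTATT (the match to miR-200b, miR-200c and miR-429) occurred 6 times, CAGTGTT (the match to miR-200a and miR-141) 3 times and ATGAAGG (the match to miR-205) 1 time. In the 5370 bases of ZEB2 they occurred 5, 4 and 0 times. Of 2353 regions within 20% of the ZEB1 length, 26.2% held CAGTATT at least 1 time and 0.0425% held it at least as often. Of 1104 regions near the ZEB2 length the shares were 45.9% and 0.0906%. The gene's own region is among those counted. CAGTGTT occurred at least as often in 0.68% of regions near the ZEB1 length and 1.36% near the ZEB2 length. ATGAAGG occurred at least 1 time in 19% of regions near the ZEB1 length. The first match of each kind is printed below with its seed pairing in capitals, on the transcribed strand.
ZEB1, chr10:31527618-31527644 (plus strand): attgttttatcttatCAGTATTatcac
ZEB1, chr10:31528031-31528057 (plus strand): caaaatcatcagaatCAGTGTTtgtga
ZEB1, chr10:31528067-31528093 (plus strand): aatatgtggtaacatATGAAGGatatg
ZEB2, chr2:144389048-144389074 (minus strand): cgcactaccatacatCAGTATTtttat
ZEB2, chr2:144389232-144389258 (minus strand): tgcaaaaattttgtaCAGTGTTaaggc

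A match is a description of letters and not a measured site. Among the other members, SNAI2 held 1 CAGTATT and ESRP1 held 1 CAGTATT and 1 CAGTGTT, and the regions of VIM, SNAI1, TWIST1, CDH1, CDH2 and ESRP2 held none of the 3 heptamers searched on the transcribed strand. Among regions near the SNAI2 length, 11.4% held CAGTATT. Near the ESRP1 length, 15.4% held CAGTATT and 18.7% held CAGTGTT. Mature microRNAs were not measured by these libraries. Of the microRNA genes, MIR200A had 7 counts over the PTPRZ_Si libraries and 14 over the PTPRZ_nc libraries, MIR200B had 6 in PTPRZ_Si and 10 in PTPRZ_nc, and MIR429 had 7 in PTPRZ_Si and 8 in PTPRZ_nc. MIR200C, MIR141 and MIR205, with the host genes MIR200CHG and MIR205HG, had 0 counts. These counts are too low for a comparison.

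SNAI1 and SNAI2 encode SNAIL and SLUG, repressors of CDH1. SNAI1 (ENSG00000124216, chr20:49982999-49988886, plus strand) had 59.2, 50.7 and 52.6 CPM in PTPRZ_Si, against 49.9, 43.3 and 50.6 CPM in PTPRZ_nc. The groups touched without overlapping, with PTPRZ_Si 2 just above PTPRZ_nc 3. The log2 fold change was 0.17 (SE 0.0739, 95% interval 0.01 to 0.32), with an unadjusted p of 0.0382 and an adjusted p of 0.109, so it did not pass.

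SNAI2 (ENSG00000019549, chr8:48917604-48921740, minus strand) had 7.88, 9.26 and 7.86 CPM in PTPRZ_Si, against 7.18, 4.60 and 6.99 CPM in PTPRZ_nc. Again the groups did not overlap, and PTPRZ_nc 2 was the lowest. The share of all tested genes with groups that did not overlap was not counted. Such separation, here and wherever groups are said not to overlap, is therefore not shown to be particular to the gene described. At 63 to 193 counts per library the log2 fold change of 0.40 had an SE of 0.163 (95% interval 0.06 to 0.75, adjusted p = 0.0801). This was the largest fold change upward among the 6 tested genes and the one with the widest interval. The log2 ratio of SNAI1 to SNAI2 averaged 2.70 ± 0.231 in PTPRZ_Si and 2.96 ± 0.238 in PTPRZ_nc (exact 2-sided permutation p = 0.3, adjusted 0.3 over 5 ratios).

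PTPRZ_nc 2 was the lowest control library for all 6 tested members, as it was for 36.9% of all tested genes. Its part in the fold changes of the members was not tested beyond leaving it out. Without it, SNAI1 had a log2 fold change of 0.0986 and SNAI2 of 0.236, both short of the threshold, as they were in all 13 alternatives.

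TWIST1 (ENSG00000122691, chr7:19020991-19117672, minus strand) had 0 counts in every library. At this depth a count of 0 allows up to 0.0527 CPM over the PTPRZ_Si libraries together and up to 0.0607 CPM over the PTPRZ_nc libraries together, taking 3 counts as the limit. Read pairs with several placements were left out by the counting program's default, so a gene at or near 0 is not shown to be silent.

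The 15 other EMT transcription factors listed beside these genes were mixed. Of 10 tested, 4 rose, 2 fell and 4 did not pass, with a median log2 fold change of 0.076. The forkhead factor FOXQ1 was at 5.2 ± 0.408 CPM in PTPRZ_Si and 3.22 ± 0.309 CPM in PTPRZ_nc (log2 fold change 0.68, adjusted p = 0.00919). TCF12, an E protein that pairs with TWIST1, was at 111 ± 0.454 CPM in PTPRZ_Si and 94.0 ± 5.27 CPM in PTPRZ_nc (0.23, adjusted p = 0.0025), and SOX4 also rose (0.19, adjusted p = 0.00568). The fourth was FOXC1 (0.22, adjusted p = 0.038), named after its values were seen. Its paralog FOXC2 fell, at 4.62 ± 0.215 CPM in PTPRZ_Si and 6.56 ± 0.291 CPM in PTPRZ_nc (log2 fold change -0.50, adjusted p = 0.0196), as did the E protein TCF3 (-0.14, adjusted p = 0.0386). With 1 library left out, 3 to 4 rose and 0 to 1 fell. TWIST2, GSC and PRRX1 had 0 counts.

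Of 10 transcription factors of the epithelial state, 4 were tested, 1 rose, 1 fell and 2 did not pass (median log2 fold change -0.17). ELF3, an ETS factor of epithelia, averaged 127 ± 4.32 CPM in PTPRZ_Si and 115 ± 2.64 CPM in PTPRZ_nc (0.15, adjusted p = 0.0267). KLF4, an activator of CDH1, averaged 63.0 ± 2.23 CPM in PTPRZ_Si and 76.4 ± 5.0 CPM in PTPRZ_nc (-0.28, adjusted p = 0.00187). GRHL2 and OVOL2, which hold ZEB1 down in epithelial cells, had 0 counts in all libraries. With 1 library left out, 0 to 1 of the list rose and 1 fell, and ELF3 did not pass without PTPRZ_nc 1 or without any single PTPRZ_Si library.

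The corepressors that SNAIL and ZEB proteins recruit were all tested, and of 13 genes 3 rose, 1 fell and 9 did not pass, with a median log2 fold change of 0.031. SMARCA4, the ATPase of chromatin remodelling complexes that binds ZEB1, rose by 0.16 (adjusted p = 0.0076). SIN3A rose by 0.22 (adjusted p = 0.0159), and CTBP1, the corepressor that ZEB1 carries, by 0.14 on the log2 scale (adjusted p = 0.0405). LOXL2, a lysyl oxidase that also stabilises SNAIL, fell: it averaged 1042 ± 28.4 CPM in PTPRZ_Si and 1250 ± 62.7 CPM in PTPRZ_nc (log2 fold change -0.26, adjusted p = 7.05e-05). EZH2 was at 43.5 CPM in PTPRZ_Si and 49.6 CPM in PTPRZ_nc, with an adjusted p of 0.0547. Leaving out 1 library gave 0 to 3 corepressors that rose and 1 to 2 that fell.

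SNAIL and SLUG are short-lived proteins marked for the proteasome by F-box ligases, which mRNA levels do not show. Of 15 genes of this turnover, 14 were tested, 1 rose, 3 fell and 10 did not pass (median log2 fold change -0.029). FBXL14, a ligase subunit for SNAIL and SLUG, rose to 40.5 ± 3.23 CPM in PTPRZ_Si, against 33.0 ± 2.80 CPM in PTPRZ_nc (0.29, adjusted p = 0.0117). FBXO45, a ligase subunit for several EMT factors, fell to 35.5 ± 3.10 CPM in PTPRZ_Si, against 50.7 ± 6.92 CPM in PTPRZ_nc (-0.50, adjusted p = 0.000404). BTRC, the F-box protein that reads SNAIL phosphorylated by GSK3B, fell by 0.32 on the log2 scale (adjusted p = 0.00608), and LATS2, a kinase that holds SNAIL in the nucleus, fell by 0.33 (adjusted p = 0.00158). GSK3B itself had 95.3 CPM in PTPRZ_Si and 97.2 CPM in PTPRZ_nc (adjusted p = 0.751). FBXL14 did not pass without PTPRZ_Si 1, and 3 genes of the list fell whichever library was left out.

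Of the pair that defines the cadherin switch, A498 cells had CDH2 in quantity and CDH1 barely above 0. CDH2 (ENSG00000170558, chr18:27950966-28177446, minus strand) had 200, 190 and 196 CPM in PTPRZ_Si, against 213, 195 and 219 CPM in PTPRZ_nc. PTPRZ_nc 2 lay among the PTPRZ_Si libraries and the other 2 controls lay above them. The log2 fold change was -0.10 (SE 0.0486, 95% interval -0.20 to 0.00, adjusted p = 0.147), with means of 195 ± 5.44 CPM in PTPRZ_Si and 209 ± 12.8 CPM in PTPRZ_nc. Without PTPRZ_nc 2 the value was -0.149 and passed (adjusted p = 0.00598), and without both PTPRZ_nc 2 and PTPRZ_Si 2 it was -0.126 (adjusted p = 0.0209).

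CDH1 (ENSG00000039068, chr16:68737225-68835548, plus strand) had 3, 17 and 9 counts in PTPRZ_Si 1, 2 and 3, against 4, 4 and 9 counts in PTPRZ_nc 1, 2 and 3. PTPRZ_Si 2 held more than any other library and the remaining values overlapped. Pooled by group this was 0.510 CPM in PTPRZ_Si (exact 95% Poisson interval 0.341 to 0.732) and 0.344 CPM in PTPRZ_nc (0.200 to 0.551). Fitted without the filter on low counts, the log2 fold change was 0.535 with an adjusted p of 0.662. CDH1 made up 0.263% of the 11044 CDH1 and CDH2 counts in PTPRZ_Si (Wilson 95% interval 0.183 to 0.377) and 0.163% of 10436 in PTPRZ_nc (0.102 to 0.261). These intervals and the limits for 0 counts cover counting error only, and a change of CDH1 was not detectable at this depth.

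VIM fell and CDH2 did not pass, and their ratio compares them within a library. The log2 ratio of VIM to CDH2 was 2.02, 2 and 2.02 in PTPRZ_Si, against 2.49, 2.54 and 2.48 in PTPRZ_nc. It was nearly constant within each group and lower by 0.488 in PTPRZ_Si (exact 2-sided permutation p = 0.1, the smallest possible, adjusted 0.125 over 5 ratios). The log2 ratio of ZEB1 to VIM was -4.44 ± 0.0477 in PTPRZ_Si and -5.29 ± 0.164 in PTPRZ_nc. The ratio of SNAI1 to VIM was -3.87 ± 0.0737 in PTPRZ_Si and -4.63 ± 0.0677 in PTPRZ_nc. Both had the same permutation p of 0.1 (adjusted 0.125 over 5 ratios) and were higher in all 3 PTPRZ_Si libraries than in any PTPRZ_nc library. VIM is a term of each of these ratios, so its fall alone moves them. They do not show a change of the other gene.

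The larger movement among cadherins was in other members of the family. Of 20 further cadherin genes, 7 were tested, 2 rose, 1 fell and 4 did not pass, with a median log2 fold change of -0.0078, and with 1 library left out 1 to 2 rose and 0 to 1 fell. CDH6, a cadherin of the proximal tubule and of kidney carcinomas, had 160, 152 and 152 CPM in PTPRZ_Si, against 74.0, 65.8 and 82.1 CPM in PTPRZ_nc. The groups did not overlap, with means of 155 CPM in PTPRZ_Si and 74.0 CPM in PTPRZ_nc, a log2 fold change of 1.06 (SE 0.0637, adjusted p = 2.46e-09). CDH16, the kidney-specific cadherin, rose to 13.5 ± 0.461 CPM in PTPRZ_Si, against 10.6 ± 0.245 CPM in PTPRZ_nc (0.34, adjusted p = 0.0188). CDH3, P-cadherin, was lower at 0.844 ± 0.392 CPM in PTPRZ_Si and 2.04 ± 0.790 CPM in PTPRZ_nc (-1.24, SE 0.377, adjusted p = 0.0204), at 150 counts over all 6 libraries. CDH3 did not pass under DESeq2, nor without PTPRZ_Si 1, PTPRZ_Si 3 or PTPRZ_nc 1, where 0 of the list fell. Under DESeq2, and without PTPRZ_Si 1 or PTPRZ_Si 2, 1 of the list rose, so CDH6 and CDH16 did not both pass.

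Summed over the 22 cadherin genes, CPM came to 416 ± 11.1 in PTPRZ_Si and 348 ± 20.6 in PTPRZ_nc. CDH2 made up 47.0% ± 0.298 of this sum in PTPRZ_Si and 60.1% ± 0.346 in PTPRZ_nc, while CDH6 made up 37.2% ± 0.368 in PTPRZ_Si and 21.2% ± 1.13 in PTPRZ_nc (SD, n = 3 each). The shares are of counts and not of length-corrected levels. Because they add to a whole, the lower share of CDH2 does not show a fall of CDH2 itself.

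**Figure D4:**
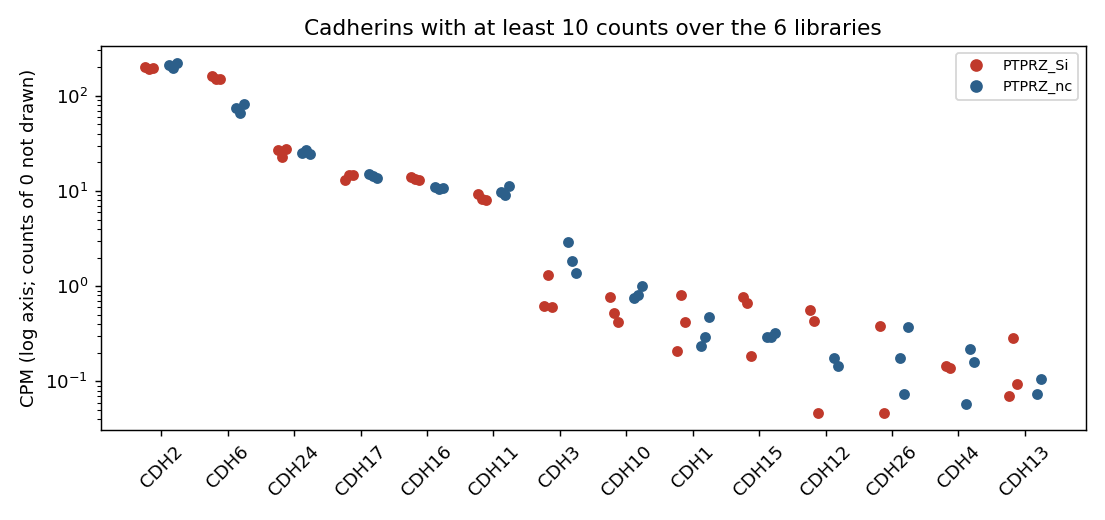
CPM of each cadherin gene with at least 10 counts over the 6 libraries, on a log axis, 1 point per library, PTPRZ_Si in red to the left of PTPRZ_nc in blue; libraries with 0 counts are not drawn. CDH6 is the abundant cadherin whose groups stand apart, at 152 to 160 CPM in PTPRZ_Si and 65.8 to 82.1 CPM in PTPRZ_nc, and CDH1 lies below 1 CPM in all libraries.

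Catenins tie cadherin tails to actin. Of 12 genes of catenins and cadherin tail regulators, 10 were tested, 2 rose, 2 fell and 6 did not pass (median log2 fold change 0.091). JUP, the plakoglobin of junctions and desmosomes, was at 65.7 ± 2.62 CPM in PTPRZ_Si and 50.8 ± 2.64 CPM in PTPRZ_nc (0.37, adjusted p = 0.000193). PTPN1, a tyrosine phosphatase that acts on cadherin-bound catenin, was at 112 ± 1.71 CPM in PTPRZ_Si and 89.7 ± 7.04 CPM in PTPRZ_nc (0.31, adjusted p = 0.00044). CTNND1, the p120 catenin that keeps cadherins at the membrane, fell to 10.4 ± 1.27 CPM in PTPRZ_Si, against 13 ± 0.950 CPM in PTPRZ_nc (-0.33, adjusted p = 0.0488). CTNNB1 and CTNNA1, the main beta- and alpha-catenin, had log2 fold changes of 0.00 and 0.09 and did not pass (adjusted p = 0.983 and 0.141). With 1 library left out, 2 to 3 genes of the list rose and 0 to 2 fell.

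Junction genes that ZEB and SNAIL proteins repress moved both ways. Of 20 listed, 13 were tested, 2 rose, 3 fell and 8 did not pass (median log2 fold change 0.014). TJP3 was at 5.03 ± 0.306 CPM in PTPRZ_Si and 3.30 ± 0.328 CPM in PTPRZ_nc (0.61, adjusted p = 0.017), and the tight junction claudin CLDN4 was at 49.9 ± 1.6 CPM in PTPRZ_Si and 42.5 ± 1.83 CPM in PTPRZ_nc (0.23, adjusted p = 0.011). CLDN1 fell to 256 ± 9.29 CPM in PTPRZ_Si, against 338 ± 15.7 CPM in PTPRZ_nc (-0.40, adjusted p = 3.9e-06). The desmosome genes PKP3 (-0.23, adjusted p = 0.00982) and DSP (-0.22, adjusted p = 0.00967) also fell. Of the junction genes, 0 to 2 rose and 2 to 4 fell with 1 library left out. EPCAM, an epithelial surface protein, had 19 counts over all libraries.

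Among 20 mesenchymal genes other than VIM and CDH2, 14 were tested, 2 rose, 6 fell and 6 did not pass, with a median log2 fold change of -0.19. Over all tested genes, 14% rose and 13.4% fell. ITGA5, the alpha chain of the fibronectin receptor, was at 438 ± 11.1 CPM in PTPRZ_Si and 701 ± 28.0 CPM in PTPRZ_nc (log2 fold change -0.68, adjusted p = 1.81e-09), and TGFBI, a matrix protein, at 835 ± 13.6 CPM in PTPRZ_Si and 1224 ± 14.7 CPM in PTPRZ_nc (-0.55, adjusted p = 2e-09). SPARC moved the other way, to 1977 ± 26.0 CPM in PTPRZ_Si, against 1301 ± 17.2 CPM in PTPRZ_nc (0.60, adjusted p = 3.64e-10). S100A4 also rose, at 4.22 ± 0.470 CPM in PTPRZ_Si and 1.49 ± 0.640 CPM in PTPRZ_nc (1.48, adjusted p = 0.000458). Leaving out 1 library gave 2 of the list that rose and 5 to 9 that fell, the 9 without PTPRZ_nc 2. FN1, fibronectin, had 1331 CPM in PTPRZ_Si and 1368 CPM in PTPRZ_nc (adjusted p = 0.47).

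**Figure D5:**
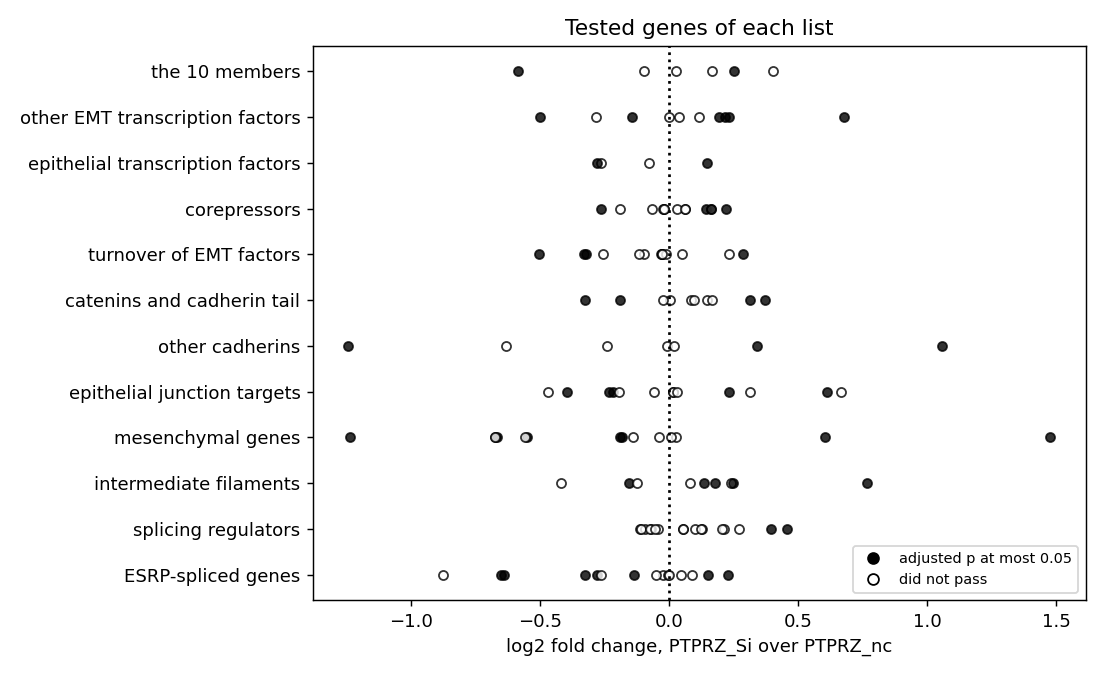
Log2 fold changes, PTPRZ_Si over PTPRZ_nc, of every tested gene of the 10 members and of 11 related lists, 1 point per gene; filled points passed an adjusted p of 0.05 and open points did not. Most lists hold filled points on both sides of 0, with splicing regulators holding filled points above 0 (2 of 17) and the mesenchymal genes holding 6 below and 2 above. Over all tested genes, 14% passed above 0 and 13.4% below.

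ESRP1 (ENSG00000104413, chr8:94641074-94707466, plus strand) had 6, 10 and 8 counts in PTPRZ_Si, against 4, 2 and 5 counts in PTPRZ_nc. No PTPRZ_Si library was as low as the highest PTPRZ_nc library, but these are few reads: pooled, 0.422 CPM in PTPRZ_Si (exact 95% Poisson interval 0.270 to 0.628) and 0.223 CPM in PTPRZ_nc (0.111 to 0.398), with overlapping intervals. ESRP2 (ENSG00000103067, chr16:68229111-68238102, minus strand) had 9, 7 and 7 counts in PTPRZ_Si, against 5, 0 and 7 counts in PTPRZ_nc. Its pooled levels were 0.404 CPM in PTPRZ_Si (0.256 to 0.607) and 0.243 CPM in PTPRZ_nc (0.125 to 0.424). Fitted without the filter, the log2 fold changes were 0.92 for ESRP1 and 0.807 for ESRP2, with adjusted p of 0.54 and 0.586. ESRP2 exons overlap 149 bases of NFATC3 exons on the other strand, a gene with 3047 counts over all libraries, and whether any ESRP2 count lay in that overlap was not tested.

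With both ESRP genes this low, other splicing regulators of EMT carried most of the counts. Of 19, 17 were tested, 2 rose, 0 fell and 15 did not pass (edgeR, median log2 fold change 0.054). At an unadjusted p under 0.05, 1 was lower, and DESeq2 and voom also gave 0 that fell. With 1 library left out, 2 to 4 rose and 0 to 1 fell, the 1 appearing without PTPRZ_nc 2 or without PTPRZ_nc 3. RBM47, an RNA-binding protein of epithelial splicing programmes, had 130, 124 and 125 CPM in PTPRZ_Si, against 96.6, 101 and 91.5 CPM in PTPRZ_nc. The groups did not overlap (log2 fold change 0.40, SE 0.0503, adjusted p = 1.55e-05). RBM24 was at 37.6 ± 3.16 CPM in PTPRZ_Si and 27.3 ± 2.68 CPM in PTPRZ_nc (0.45, adjusted p = 0.000658). QKI and RBFOX2, which favour mesenchymal exons, had log2 fold changes of -0.04 and 0.27 that did not pass (adjusted p = 0.565 and 0.39).

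Of 15 genes whose transcripts ESRP proteins splice, all were tested, 2 rose, 5 fell and 8 did not pass (median log2 fold change -0.053). FGFR2 was at 35.7 ± 1.05 CPM in PTPRZ_Si and 30.5 ± 0.694 CPM in PTPRZ_nc (0.23, adjusted p = 0.0175) and FGFR1 rose by 0.15 (adjusted p = 0.0173). FGFR3 fell to 4.99 ± 0.671 CPM in PTPRZ_Si, against 7.80 ± 0.358 CPM in PTPRZ_nc (-0.64, adjusted p = 0.00412). The polarity gene SCRIB (-0.65, adjusted p = 0.00495) and LAS1L (-0.28, adjusted p = 0.00489) fell too. SCRIB had 18.75, 26.45 and 30.59 CPM in PTPRZ_Si, against 52.28, 34.86 and 33.23 CPM in PTPRZ_nc. Its groups came close, and PTPRZ_nc 1 lay well above the rest. RAC1 (-0.14, adjusted p = 0.0227) and CTNND1, named after their values were seen, complete the 5. CD44 had 1665 CPM in PTPRZ_Si and 1692 CPM in PTPRZ_nc (adjusted p = 0.749). Of the 15, 0 to 2 rose and 3 to 5 fell with 1 library left out. Counts per gene do not show which exons were used.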

How the data were processed

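The authors deposited raw counts of read pairs per gene for 6 libraries. Per the file headers, featureCounts 2.0.1 assigned pairs to genes through their exons in the Ensembl 107 annotation of GRCh38, without a strand option and without an option for pairs with several placements. The alignment names contain hisat, and no source used here gives the aligner's version. Per the labels' protocols, a directional library kit was used. Totals ran from 13726908 to 21469746 counts.

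A gene name table gave symbols for 61757 of 61860 genes and from GENCODE 29 (GRCh38) for another 101. Coordinates, exon lengths and untranslated regions are those of GENCODE 29 (58308 genes with a length), a different release from the authors'. Groups and replicate numbers came from the labels.

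Counts were analysed with edgeR 4.0.16 in R 4.3.3: a filter by filterByExpr (15476 genes kept, holding 99.82% of counts), TMM scaling (factors 0.9936 to 1.009) and the 2-sided test of glmQLFTest after glmQLFit. Adjustment was by Benjamini-Hochberg over all tested genes. The coefficient of variation beyond counting was 5.53%. CPM are scaled by TMM. The script was tested on simulated data first. Alternatives were size factors of the RLE kind, DESeq2 1.42.0, voom of limma 3.58.1, no filter, a mean of at least 5 CPM, the replicate number as a block, and leaving out libraries. Lengths of the longest coding transcript were added after seeing the data, as was the search for microRNA seeds. Replicates differed by more than counting noise (chi-square per degree of freedom 2.16 to 6.11), so none was taken as a duplicate.

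The members and lists were chosen with earlier results of these data known. The text names all 10 members, PTPRZ1, and of each other list up to 3 changed genes in each direction, taken by smallest p. Some genes that meet this rule are not reported here. Genes given outside it were chosen after their values were seen.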

Additional observations from a re-analysis of the deposited data

How the results depend on the processing

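Under 13 alternative settings, the count of changed genes over the whole table stayed within 1.5 times of 4243, from 3182 to 4425 when 1 library was left out. VIM passed in all 13, at log2 fold changes of -0.618 to -0.558. ZEB1 passed in 6 of 13: it failed under DESeq2 (0.254, adjusted p = 0.0628), without both PTPRZ_nc 2 and PTPRZ_Si 2 (0.161, adjusted p = 0.149) and in 5 of the 6 fits that left out 1 library, over which its log2 fold change ran from 0.147 to 0.335 and its adjusted p from 0.0189 to 0.151. The count of changed members, 2 in the report, was 1 under DESeq2 and ran from 1 to 2 when a library was left out; without PTPRZ_nc 2 the 2 were VIM and CDH2. CDH2 ran from -0.149 to -0.0654 when 1 library was left out, passing at -0.149 without PTPRZ_nc 2 and at -0.126 without both PTPRZ_nc 2 and PTPRZ_Si 2. ZEB2 turned to -0.00862 without PTPRZ_Si 3, to -0.0472 without PTPRZ_nc 2 and to -0.0361 without both PTPRZ_nc 2 and PTPRZ_Si 2, and ran from -0.0472 to 0.0653 when 1 library was left out, short of the threshold throughout. SNAI1 (0.0986 to 0.21) and SNAI2 (0.151 to 0.505) kept their direction and did not pass in any of the 13. The cause of these moves was not tested. With the replicate number as a block, 4101 genes changed and ZEB1 passed at 0.266 (adjusted p = 0.0206). Deviations of same-numbered libraries correlated at 0.0224, 0.0405 and 0.0129, too weakly to take the numbers as pairs, although each library correlated best with its own number. Of 286 counts of changed genes in the 11 lists, over 13 alternatives, 220 stayed within 1.5 times, and of the 66 that did not, 55 went down. At these depths, the few counts of CDH1, ESRP1 and ESRP2 allow no comparison.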
